A study of Mus musculus with 13 samples.

Results

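The 6 mesothelial genes Msln, Upk3b, Upk1b, Lrrn4, Wt1 and Muc16 were chosen by name, as genes known to mark mesothelial cells, and matched by mouse symbol to the count table. All 6 were present among its 53379 genes, and all 6 passed the filter on low counts that left 19984 genes for testing. Bulk RNA-seq was performed on CD45- thymic stromal cells of wild type C57BL/6 mice of 2 months, a preparation depleted of hematopoietic cells. There were 4 libraries at steady state (PBS, untreated) and 3 libraries at each of day 1, day 4 and day 7 after irradiation of the whole body at a sublethal dose (TBI, 550 cGy from a cesium source), the injury model of the study. Every library came from wild type animals of the same age and the same CD45- gate. In whole CD45- cells, fewer mesothelial cells, less RNA per mesothelial cell and a change in the rest of the library cannot be told apart.

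The mesothelium is the flat, epithelium-like sheet of mesodermal origin that covers the lungs, the heart, the abdominal organs and the outer face of the thymic capsule. Its cells are known for secreting a lubricating film, for their surface glycoproteins and microvilli, and for keeping features of both epithelial and mesenchymal cells. In the thymus they make up a small share of the stroma, so a bulk library reads their genes among those of many other cells.

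The genes lie apart in the genome, except that Lrrn4 and Wt1 share chromosome 2 (GRCm38, GENCODE M21). Msln (ENSMUSG00000063011) lies at chr17:25748613-25754378 on the minus strand, Upk3b (ENSMUSG00000042985) at chr5:136038496-136046487 on the plus strand and Upk1b (ENSMUSG00000049436) at chr16:38773184-38800328 on the minus strand. Lrrn4 (ENSMUSG00000043110) lies at chr2:132868305-132880891 on the minus strand, Wt1 (ENSMUSG00000016458) at chr2:105126529-105173616 on the plus strand and Muc16 (ENSMUSG00000109564) at chr9:18495455-18674530 on the minus strand. In this annotation no exonic base of the 6 genes overlapped an exon of another gene, on either strand. The counts were made on GENCODE M12, in which overlap was not checked.

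Promoter sequence was at hand for 3 of the 6 genes and is shown as a description. A link between these sequences and the levels of the genes was not tested. Each run holds 250 bases before and 50 after the gene start (RefSeq, GRCm38.p6), read 5′ to 3′ on the strand of the gene: Upk3b at chr5:136038246-136038545 (plus), Lrrn4 at chr2:132880813-132881112 (minus) and Muc16 at chr9:18674554-18674853 (minus). Capitals mark GGAATG on either strand, the core that TEAD factors are known to bind.
Upk3b: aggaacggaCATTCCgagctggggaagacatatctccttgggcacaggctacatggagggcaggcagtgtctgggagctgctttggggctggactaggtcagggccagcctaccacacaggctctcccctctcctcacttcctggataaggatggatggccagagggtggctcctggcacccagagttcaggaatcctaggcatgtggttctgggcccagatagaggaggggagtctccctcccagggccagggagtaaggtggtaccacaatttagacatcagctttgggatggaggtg
Lrrn4: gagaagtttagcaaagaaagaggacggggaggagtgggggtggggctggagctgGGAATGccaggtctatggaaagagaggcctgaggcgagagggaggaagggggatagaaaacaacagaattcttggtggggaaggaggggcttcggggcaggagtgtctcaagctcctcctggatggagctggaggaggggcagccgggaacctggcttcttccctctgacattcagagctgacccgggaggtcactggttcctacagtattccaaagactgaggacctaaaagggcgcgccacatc
Muc16: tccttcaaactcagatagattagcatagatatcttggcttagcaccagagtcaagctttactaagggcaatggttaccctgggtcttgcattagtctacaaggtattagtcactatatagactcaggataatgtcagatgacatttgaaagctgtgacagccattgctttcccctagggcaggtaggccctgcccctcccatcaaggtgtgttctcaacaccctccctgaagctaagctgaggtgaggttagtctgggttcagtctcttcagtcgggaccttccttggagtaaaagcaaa
One GGAATG was found in Upk3b, written there as its reverse complement and starting at position -241 from the gene start, and one in Lrrn4, at position -196. Muc16 held none, and 14.7% of all 32851 promoters of this length held at least 1. GCGTGGGNG, the letters of a WT1 and EGR type site, was found in none of the 3 and in 1.9% of all promoters on either strand. TATAAA was also in none of the 3, against 13.6% of all promoters. The promoters of Upk3b and Muc16 held 2 and 1 CpG, where the median over all promoters was 7, and that of Lrrn4 held 7.

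Depth was 15721866 to 52056896 counts per library, and each of the 6 genes had at least 382 counts in every library. Levels are given as CPM, the counts of a gene scaled to the total over the tested genes with TMM factors, so that depth cancels between libraries. The 4 steady-state libraries carry the day and replicate of a PBS series in their names (day 1 replicate 2, day 4 replicate 2, day 7 replicates 1 and 2), and values are listed in that order and then by replicate. Day 1 replicate 1 and day 4 replicates 2 and 3 stood apart from the other 10 libraries on the first principal component of all genes tested (102, 63.5 and 60.9 against -63.0 to 13.2, 34.0% of the variance), and day 7 replicate 2 stood apart on the second (88.1). That last library held 606 CPM of Ptprc, which encodes CD45, where the other 12 libraries held 4.07 to 224 CPM, and the summed thymocyte markers were highest there too (2354 CPM). The 3 erythroid markers summed to 1557 to 3571 CPM at steady state and 289 to 972 CPM at day 1. Their sums were 3.48 to 6.26 CPM at day 4 and 279 to 758 CPM at day 7. The part of this red cell RNA in the values of the 6 genes was not tested. The column names also carry tags that the sources used here do not explain. These tags form 3 families spread unevenly over the conditions, and each of day 1, day 4 and day 7 lacked a different family. Results that rest on the libraries that stood apart are given with and without them.

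All 6 genes were well above the limit of counting at every time point. Together the 6 genes made up 563 to 4308 CPM at steady state, 1529 to 1799.8 CPM at day 1, 2604 to 3799 CPM at day 4 and 1904 to 3978 CPM at day 7. The group means were 2726 ± 1644 (SD, n = 4), 1683.5 ± 139 (n = 3), 3029.6 ± 667 (n = 3) and 3157 ± 1103 CPM (n = 3). At steady state the highest library held 7.65 times the lowest, and without the PBS day 1 library this ratio was 1.80, beside 1.18 at day 1, 1.46 at day 4 and 2.09 at day 7. The PBS day 1 library was the lowest of the 13 for 5 of the 6 genes, all but Lrrn4, and day 4 replicate 3 was the highest for 3 of them.

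Uroplakins are also made by the bladder lining, and mesothelial cells line the lung, so markers of both tissues were read beside them. Upk2, a uroplakin of the bladder, did not exceed 0.948 CPM, Upk1a did not exceed 2.00 CPM and Sftpc, a surfactant gene of the lung, did not exceed 0.975 CPM in any library. Upk3a reached 14.3 CPM and Krt20 reached 40.2 CPM. The 4 urothelial markers summed to 5.88 to 51.4 CPM and were highest in the PBS day 1 library, where Upk3b and Upk1b were at their lowest. The 3 lung markers summed to 0.38 to 11.1 CPM. Nkain4, which is used beside Upk3b to mark thymic mesothelial cells, was found at 47.8 to 427 CPM and was lowest in the PBS day 1 library, as Upk3b was.

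**Figure D1:**
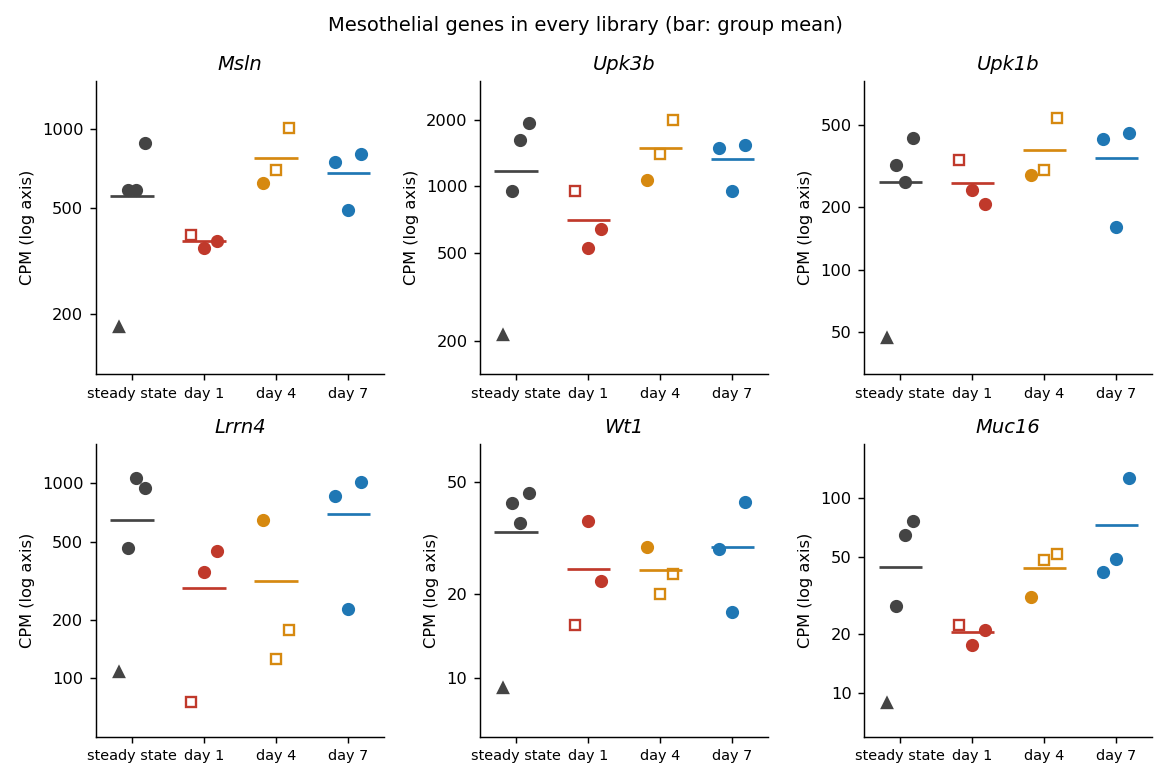
CPM of each of the 6 genes in the 13 libraries (log axis), by condition, with the group mean as a bar. Open squares are the 3 libraries that stood apart on the first principal component and the triangle is the PBS day 1 library, the lowest of all for 5 of the 6 genes. At days 4 and 7 the points of Msln, Upk3b and Muc16 all lie above those of day 1, while for Lrrn4 the open squares lie at 75.3 to 178 CPM.

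Msln and Muc16 encode a pair of binding partners on the mesothelial surface. Mesothelin, the product of Msln, is a glycoprotein held in the membrane by a lipid anchor, and Muc16 is a very large membrane mucin that binds it. Msln stood at 178, 585, 584 and 882 CPM at steady state, at 397, 356 and 378 CPM at day 1, at 624, 699 and 1008 CPM at day 4 and at 752, 493 and 805 CPM at day 7. Every day 4 and day 7 library was above every day 1 library, and the steady-state libraries spanned almost the whole range. Muc16 stood at 8.93, 28.1, 65.0 and 76.1 CPM at steady state, at 22.5, 17.7 and 21.2 CPM at day 1, at 31.0, 48.4 and 51.6 CPM at day 4 and at 41.7, 49.1 and 127 CPM at day 7. As for Msln, all libraries of days 4 and 7 lay above those of day 1, and steady state overlapped every other condition. Muc16 at day 7 was carried upward by replicate 3, whose 127 CPM was the highest value of the series for this gene.

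Upk3b and Upk1b belong to the uroplakins, membrane proteins that stiffen the surface of the bladder lining and are also made by mesothelial cells. Upk1b is the tetraspanin of the pair. Upk3b stood at 213, 955, 1619 and 1929 CPM at steady state, at 952, 524 and 644 CPM at day 1, at 1066, 1407 and 1994 CPM at day 4 and at 1484, 957 and 1532 CPM at day 7. Day 1 did not overlap days 4 and 7, although its highest library, replicate 1, came close to the lowest at day 7. Upk1b stood at 47.1, 321, 265 and 433 CPM at steady state, at 338, 244 and 208 CPM at day 1, at 287, 303 and 543.5 CPM at day 4 and at 428, 160.1 and 456 CPM at day 7. Its conditions all overlapped, with the lowest values in the PBS day 1 library and in day 7 replicate 2.

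Lrrn4 encodes a membrane protein with leucine-rich repeats that is used as a surface marker of mesothelial cells. Its level was 108, 468, 1064 and 942 CPM at steady state, 75.3, 352 and 449 CPM at day 1, 648, 126 and 178 CPM at day 4 and 857, 228 and 1014 CPM at day 7. Every condition held both low and high libraries, and the highest held 4.45 to 9.89 times the lowest within a condition. Lrrn4 had the widest spread of the 6 genes. Its pooled SD within conditions was 1.36 on the log2 scale, larger than that of 99.5% of the genes tested, and the median over all genes was 0.37. The SD was 0.63 for Msln, 0.75 for Wt1, 0.90 for Upk3b, 0.92 for Muc16 and 0.96 for Upk1b.

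Wt1 encodes the zinc finger transcription factor that the developing mesothelium depends on. It was measured at 9.23, 42.2, 35.9 and 45.8 CPM at steady state, at 15.4, 36.2 and 22.1 CPM at day 1, at 29.2, 19.9 and 23.5 CPM at day 4 and at 28.8, 17.1 and 42.5 CPM at day 7. The conditions overlapped throughout, and 3 of the 4 steady-state libraries lay among the highest. Wt1os, its antisense neighbor, starts 19 bases from Wt1 on the other strand, and the counting is not stated to use strand.

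Per kilobase of gene length, the last 2 places were fixed and the first 4 were not. Lengths were those deposited with the counts, 2114 bases for Msln and 1769 for Upk1b. GENCODE M21 gives 3064 and 2089 exonic bases for these genes, and the order with those lengths was not computed. Muc16 was last and Wt1 was next to last in all 13 libraries, Upk3b was first in 10 and Msln in 3, and Lrrn4 was above Upk1b in 6 and below it in 7, which made 6 different orders. The means over 13 libraries were 333 CPM per kb for Upk3b, 282 for Msln, 175 for Upk1b, 135 for Lrrn4, 4.57 for Wt1 and 1.72 for Muc16. The ranges of the first 4 over the libraries overlapped. Upk3b ranged from 60.2 to 565, Msln from 84.2 to 477, Upk1b from 26.6 to 307 and Lrrn4 from 20.3 to 286 CPM per kb. These ranges leave out that the genes were read in the same libraries, and differences between the genes were not tested. Wt1 ranged from 1.49 to 7.39 CPM per kb, below every value of those 4 genes, and overlapped Muc16 (0.339 to 4.84 CPM per kb) across libraries though not within any of them.

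It was next asked whether the 6 genes differed among the conditions. The 4 conditions were compared as a whole with edgeR's quasi-likelihood test across all 19984 genes and Benjamini-Hochberg adjustment. Of 6 genes 0 were called, where 6.66% of all genes tested were called. The smallest unadjusted p of the 6 was 0.0798, that of Muc16. The adjusted p was 0.267 for Muc16, 0.354 for Msln and 0.538 to 0.826 for the other 4 genes. DESeq2 also called 0 of 6 here. The methods of the study speak of biological replicates, but no label ties a library to an animal, and p-values then measure only the spread between these libraries, which may be technical.

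At day 1 all 6 genes had lower fitted levels than at steady state, as did 11276 of the 19984 genes tested, and none of the 6 differences passed the test. The 6 genes varied together over the same libraries, so they are not 6 separate observations. Of 6 genes 0 were called, where 2.35% of all genes were called, and 0 of 6 had an unadjusted p under 0.05 with edgeR, where 17.2% of all genes did. DESeq2 also called 0 of 6, where it called 1399 genes over the whole table. The median log2 fold change of the 6 was -0.65, beside -0.10 over all genes. Muc16 had a log2 fold change of -1.12 ± 0.59 (SE; adjusted p = 0.354) and Lrrn4 one of -1.14 ± 0.83 (adjusted p = 0.509), and those of Msln (-0.56 ± 0.40) and Upk3b (-0.74 ± 0.54) were smaller. Upk1b was at -0.02 ± 0.56 and turned positive in 13 of 21 alternatives. The PBS day 1 library lay below day 1 for 5 of the 6 genes, and without it the median was -0.92, with adjusted p-values from 0.134 (Muc16) to 0.745 (Upk1b). Without the 3 libraries that stood apart the median was -0.64, and Lrrn4 moved to -0.68. The 6 fibroblast markers had summed levels of 3374 to 4868 CPM at steady state, 2333 to 3129 CPM at day 1, 2749 to 3992 CPM at day 4 and 3734 to 4553 CPM at day 7, so that the day 1 libraries lay below those of steady state and day 7, and 0 of the 6 markers were at 0. Their part in the values of the 6 genes was not tested.

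No difference from steady state was detected at day 4 or day 7, with intervals that were wide. At day 4, 0 of 6 genes were called with edgeR or DESeq2 (0.29% of all genes with edgeR, 645 genes with DESeq2). With edgeR 0 had an unadjusted p under 0.05, where 13% of all genes did. Fitted values were above steady state for 3 genes and below it for 3, and the median log2 fold change was 0.15 against -0.13 over all genes. The largest was that of Lrrn4, at -1.02 ± 0.82 (adjusted p = 0.574). Its 95% interval ran from -2.80 to 0.75, and the log2 fold change was 0.0034 without the 3 libraries that stood apart. At day 7, 0 of 6 were called with either tool (0.005% of all genes with edgeR, that is 1 gene). With edgeR 0 had an unadjusted p under 0.05, where 13.5% of all genes did. The median was 0.23 against 0.00 over all genes. Muc16 had the largest value at day 7, 0.71 ± 0.57 (adjusted p = 0.711), and its 95% interval ran from -0.52 to 1.93. Without the PBS day 1 library the medians were -0.10 at day 4 and -0.09 at day 7, so their sign rested on that library, and at day 4 also on the 3 libraries that stood apart (-0.07 without them).

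The comparisons between day 1 and the later days do not use the steady-state libraries as a group. Without the PBS day 1 library the medians were 0.83 at day 4 and at day 7 against day 1, smaller in size than the -0.92 of day 1 against steady state in the same fit. From day 1 to day 4, fitted levels of Msln, Upk3b and Muc16 were 2.06, 2.11 and 2.13 times as high, with log2 fold changes of 1.04 ± 0.43, 1.08 ± 0.58 and 1.09 ± 0.62. The libraries of these 3 genes did not overlap between the 2 days, which was also so for 12.6% of all genes tested in the same direction. With edgeR 0 of 6 genes were called (1.43% of all genes), with adjusted p-values of 0.301 for Msln, 0.442 for Upk3b and 0.469 for Muc16, and 1 of 6, Msln, had an unadjusted p under 0.05, as did 13.7% of all genes. DESeq2 called 0 of 6. Upk1b was at 0.52 ± 0.60, Lrrn4 at 0.12 ± 0.86 and Wt1 at -0.02 ± 0.51. The median of the 6 was 0.78, beside -0.10 over all genes, and 0.67 without the 3 libraries that stood apart, which left a single library at day 4.

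From day 1 to day 7 all 6 fitted values were positive, as were those of 10623 of the 19984 genes tested. The median log2 fold change was 0.88, beside 0.05 over all genes, and 0.84 without the 3 libraries that stood apart. Muc16 was 3.55-fold higher at day 7, with a log2 fold change of 1.83 ± 0.63 (95% interval 0.47 to 3.19) and an adjusted p of 0.0934. Lrrn4 followed at 1.26 ± 0.87 (adjusted p = 0.416), Upk3b at 0.91 ± 0.57 (adjusted p = 0.371) and Msln at 0.86 ± 0.43 (adjusted p = 0.248). Upk1b was at 0.40 ± 0.60 and Wt1 at 0.26 ± 0.51. Msln, Upk3b and Muc16 again did not overlap between the 2 days, as did 12.7% of all genes in the same direction. With edgeR 0 of 6 were called, where 8.13% of all genes were called, and 1 of 6, Muc16, had an unadjusted p under 0.05, as did 23.9% of all genes.

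Muc16 between days 1 and 7 was the value closest to the threshold. DESeq2 called it, at 1.78 (adjusted p = 0.0356), as did edgeR without the filter on low counts (adjusted p = 0.0334) and without the PBS day 1 library, which is in neither group but enters the estimate of the spread (1.77, adjusted p = 0.0289). Over its 22 alternatives the adjusted p ran from 0.0289 to 0.38, and it was highest without day 7 replicate 3, where the log2 fold change was 1.09. Over the whole table the main fit called 1625 genes from day 1 to day 7, and the alternatives called up to 2940. Both comparisons against day 1 share the day 1 libraries. Between days 4 and 7, 0 of 6 genes were called with edgeR or DESeq2 (3.9% of all genes with edgeR). With edgeR 0 had an unadjusted p under 0.05, where 18.7% of all genes did. Of the fitted values 3 were positive and 3 negative, and the median was 0.08 against 0.11 over all genes.

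**Figure D2:**
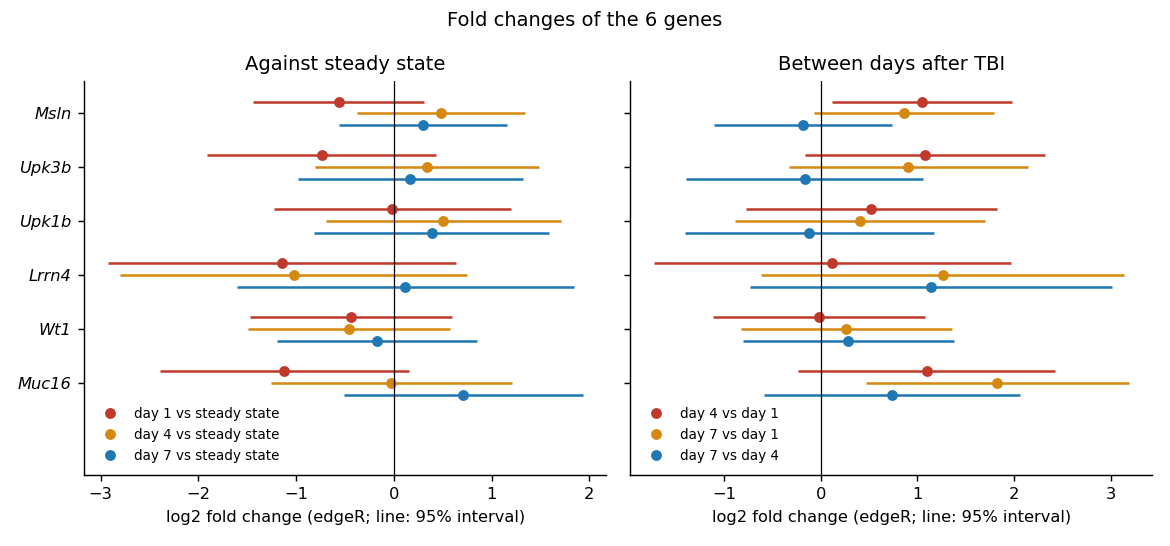
Log2 fold changes of the 6 genes (points) with 95% intervals (lines) from the edgeR fit on 13 libraries, against steady state on the left and between days after TBI on the right. All intervals against steady state cross 0. Between days, those of Msln at day 4 against day 1 (0.11 to 1.98) and of Muc16 at day 7 against day 1 (0.47 to 3.19) do not, and neither value passed the adjusted test.

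The levels of the 6 genes varied together from library to library. Over the 13 libraries the Pearson correlation of log2(CPM + 0.5) was 0.404 to 0.961 over the 15 pairs of genes, with a median of 0.696, and 11 of 15 pairs had an adjusted permutation p of 0.05 or less. The Spearman correlation had a median of 0.582, and 6 of 15 pairs passed. With the mean of each condition removed the median was 0.805, and 6 of 15 pairs passed an exact permutation test within conditions. All pairs share the libraries, their depth and their normalization. The correlation and the share passing were not computed for other pairs of genes. Whether the 6 genes varied together more than other genes was therefore not tested.

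By Pearson correlation over all libraries, Msln and Upk3b were the closest pair. Their Pearson correlation was 0.961 (permutation p = 1e-05, the smallest that 100000 permutations can give, adjusted p = 0.00015) and Spearman's rho was 0.907 (permutation p = 1e-05). Without the 2 libraries farthest from the median of Msln it was 0.902. Upk3b and Muc16 had a higher rho (0.912), and with condition means removed Msln and Upk1b had a higher Pearson correlation (0.973 against 0.957). Msln counts were 0.361 to 0.837 of Upk3b counts in the 13 libraries. Msln and Upk1b followed at 0.891 (permutation p = 0.00019, rho of 0.863 with permutation p = 0.00035), and at 0.689 without the 2 farthest libraries.

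How close the pairs were as a set depended on the libraries kept, and some pairs moved far less than others. Without the PBS day 1 library Lrrn4 and Wt1 went from 0.821 to 0.808, and Upk3b and Muc16 from 0.878 to 0.811. Upk3b and Wt1 fell from 0.599 to 0.209. Leaving out, for each pair, the 2 libraries farthest from the median of its first gene gave a median of 0.521 and a range from 0.0295 to 0.902. The median was 0.43 without the PBS day 1 library, in which all 6 genes were low, and 6 of 15 pairs then had an adjusted permutation p of 0.05 or less. Without the 3 libraries that stood apart it was 0.883 (0.648 to 0.973), with 15 of 15 pairs passing, and it was 0.737 (0.326 to 0.93) without those 3 and the PBS day 1 library. No correlation was taken within a tag family, since each holds fewer than 6 libraries, and with the family means removed the median was 0.739.

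Lrrn4 and, less far, Wt1 were lower relative to Upk3b in the 3 libraries that stood apart. Lrrn4 was there at 75.3, 126 and 178 CPM, where the other 10 libraries held 108 to 1064 CPM. The mean difference was -2.07 on the log2 scale, a value that 2.29% of all genes tested matched or undercut. Upk3b, Upk1b and Msln were at 0.57, 0.64 and 0.34 in the same reading, and Muc16 was at 0.08 and Wt1 at -0.53. Counts of Lrrn4 relative to Upk3b were 0.0791, 0.0898 and 0.089 in the 3 libraries and 0.488 to 0.697 in 9 of the other 10, the exception being 0.238 in day 7 replicate 2. Counts of Wt1 relative to Upk3b were 0.0118 to 0.0162 in the 3 libraries, below the 0.0179 to 0.0692 of the other 10. Since the 3 libraries were singled out with all genes in view, Lrrn4 and Wt1 included, these values are a description with no test.

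The correlations of Lrrn4 followed that split. Its 5 pairs had a median Pearson correlation of 0.475 over all 13 libraries and 0.885 without the 3 libraries that stood apart. Its best partner over all libraries was Wt1, at 0.821 (permutation p = 0.00055, rho of 0.808 with permutation p = 0.00147, and 0.73 without the 2 farthest libraries). Rspo1, a secreted enhancer of Wnt signaling, and Bnc1, a zinc finger protein of epithelia and mesothelium, were also lower in the 3 libraries, by -1.16 and -1.21. Of all genes tested, 11.2% and 10.6% were as low. Aldh1a2, which makes retinoic acid, was at -0.51 (23.3% as low), Ezr at -0.30 and Krt7 at -0.13. All other genes of the wider list of mesothelial genes read below were higher there. Among them were Nkain4 (0.68), Gpm6a (0.53), Cldn15 (0.47) and Krt19 (0.45). The part that the 3 libraries' other differences had in these values was not tested.

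**Figure D3:**
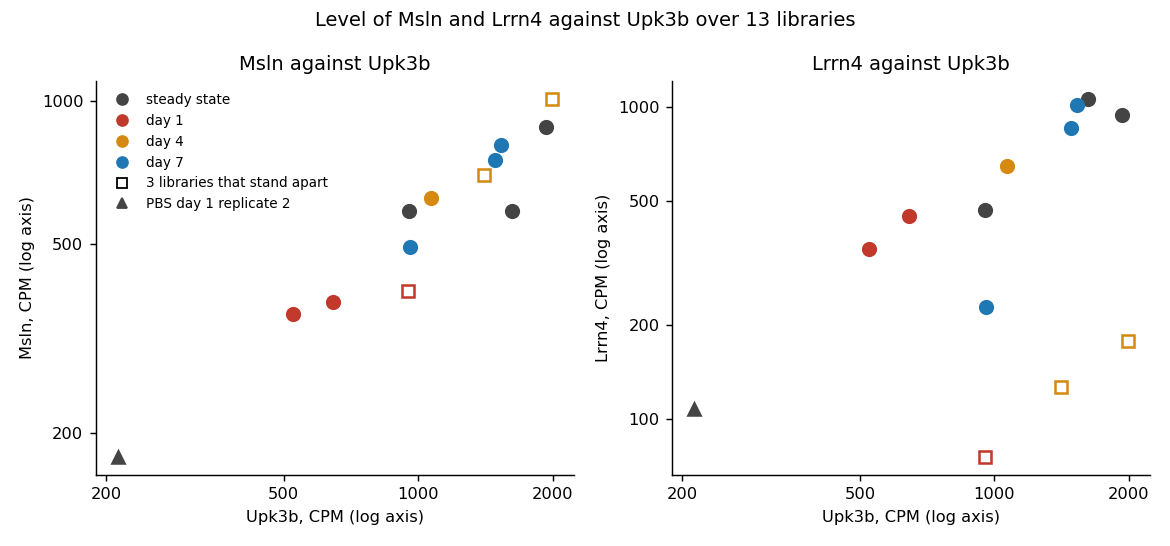
CPM of Msln (left) and Lrrn4 (right) against CPM of Upk3b in each of the 13 libraries, both axes log. Msln rose with Upk3b, at 0.361 to 0.837 of Upk3b counts. Lrrn4 fell away from the line of the others in the 3 open squares (0.0791 to 0.0898 of Upk3b counts) and in day 7 replicate 2.

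The genes whose levels were most like the mean of the 6 were then listed among 14575 genes with a mean of at least 1 CPM. Cyp2s1, a cytochrome P450 enzyme, came first with a Pearson correlation of 0.97 over the 13 libraries. AI661453 (0.95), Crls1 (0.95), Ano1 (0.95), Wt1os (0.95), Daglb (0.95), 1010001N08Rik (0.94), Kiz (0.94), Dlx4os (0.94) and Dpysl5 (0.93) made up the rest of the first 10. Crls1, a cardiolipin synthase, ends 1520 bases from Lrrn4, and Wt1os lies 19 bases from Wt1. Ano1, a calcium-gated chloride channel, was at 89.9 to 479 CPM and Crls1 at 4.96 to 58.4 CPM. These values are a description, and the PBS day 1 library, lowest in most of the 6 genes, weighs on all of them.

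A wider list of 16 genes known from mesothelial cells was read in the same way. Aldh1a2 ranked 11th of 14575 genes by likeness to the mean of the 6 (0.93), Gpm6a 46th (0.87), Nkain4 76th (0.84), Cldn15 121st (0.81), Rspo1 136th (0.80), Bnc1 142nd (0.79) and Krt19 163rd (0.78). Slpi (0.44), Dmkn (0.20), Anxa8 (0.11), Pdpn (0.06) and Krt7 (0.01) were far lower, and Krt18 (-0.31), Krt8 (-0.48) and Calb2 (-0.64) ran the other way. The list thus held genes that followed the 6 and genes that did not.

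Of the 16 genes, 1 rose and 0 fell at day 1 against steady state (2.35% of all genes called), 1 rose and 2 fell from day 1 to day 7 (8.13%), and 1 fell from day 4 to day 7 (3.9%). In the other 3 comparisons 0 of 16 were called with edgeR. Those called were Pdpn, Calb2, Ezr and Krt18, which are also made by other cells of the thymic stroma. Nkain4 was not called in any comparison, with an adjusted p of 0.796 over the 4 conditions.

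Pdpn encodes podoplanin, a membrane glycoprotein of mesothelium, lymphatic endothelium and fibroblasts. It stood at 11.5, 40.5, 25.0 and 26.1 CPM at steady state, at 146, 69.7 and 59.8 CPM at day 1, at 26.4, 40.0 and 38.7 CPM at day 4 and at 32.2, 19.4 and 34.9 CPM at day 7. Day 1 lay above all other libraries, with replicate 1 the highest. Of all genes tested, 7.25% had every day 1 library above those of steady state, and 14.8% had every day 7 library below those of day 1. Pdpn was 3.56-fold higher at day 1 than at steady state (log2 fold change 1.83 ± 0.41, adjusted p = 0.0312) and fell by 1.67 from day 1 to day 7 (SE 0.44, adjusted p = 0.0371). Both calls were lost without day 1 replicate 1 (1.33, adjusted p = 0.179, and -1.17, adjusted p = 0.135), and without the 3 libraries that stood apart (1.33, adjusted p = 0.286, and -1.18, adjusted p = 0.188). The first was also lost without PBS day 7 replicate 1 or 2, day 1 replicate 2, day 4 replicate 2 or 3 or day 7 replicate 3 (adjusted p from 0.0502 to 0.0992). The second was also lost without PBS day 7 replicate 1, day 1 replicate 2, day 4 replicate 2 or 3 or any library of day 7 (adjusted p from 0.0503 to 0.147). The fit on only the conditions compared ended both as well (1.76, adjusted p = 0.111, and -1.64, adjusted p = 0.0566).

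Calb2 encodes calretinin, a calcium-binding protein used to stain human mesothelium. It was scarce, at 278, 26, 108 and 23 counts at steady state, 123, 25 and 75 counts at day 1, 1, 29 and 18 counts at day 4 and 5, 5 and 4 counts at day 7. All day 7 libraries were at 0.102 to 0.108 CPM, below every library of steady state and day 1. Of all genes tested, 4.67% lay below steady state in this way and 14.8% below day 1. Calb2 fell by 4.27 from day 1 to day 7 on the log2 scale (SE 0.90, adjusted p = 0.0143). The call was lost without day 1 replicate 1 (-3.68, adjusted p = 0.0555), day 7 replicate 2 (-4.29, adjusted p = 0.0581) or day 7 replicate 3 (-4.36, adjusted p = 0.0514), and without the 3 libraries that stood apart (-3.69, adjusted p = 0.0777) or with tag family as a covariate (-3.96, adjusted p = 0.066). The PBS day 1 library, lowest for 5 of the 6 mesothelial genes, was the highest for Calb2 (6.10 CPM) and also high in the summed thymic epithelial markers (1955 CPM, against 479 to 1039 CPM in the other 3 steady-state libraries). The part of epithelial cells in the Calb2 counts was not tested.

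Ezr encodes ezrin, which ties the membrane of microvilli to actin. It stood at 346, 351 and 321 CPM at day 1 and at 503, 843 and 857 CPM at day 7. All day 7 libraries lay above those of day 1, which was also so for 12.7% of all genes tested. Ezr rose by a log2 fold change of 1.11 ± 0.31 (adjusted p = 0.0454). Ptprc and thymocyte markers were highest in the same 2 day 7 libraries that were highest in Ezr, replicates 2 and 3 (summed thymocyte markers of 2354 and 1059 CPM against 102 CPM in replicate 1), and their part in this value was not tested. The call was kept in 7 of 22 alternatives, and without day 7 replicate 2 or 3 the log2 fold change was 0.97 (adjusted p = 0.167) or 0.92 (adjusted p = 0.175). It was also lost without PBS day 7 replicate 1, any library of day 1 or any library of day 4 (adjusted p from 0.0645 to 0.123), and without the 3 libraries that stood apart (1.10, adjusted p = 0.174).

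Krt18, a keratin of simple epithelia, was at 1280, 1436 and 934 CPM at day 4 and at 459, 341 and 269 CPM at day 7. All day 7 libraries lay below those of day 4, which was also so for 14% of all genes tested. Krt18 fell by 1.77 between these days (SE 0.40, adjusted p = 0.0317). The thymic epithelial markers moved with it, at 1899 to 2571 CPM summed at day 4 and 322 to 677 CPM at day 7, and their part in the value was not tested. Leaving out day 4 replicate 2 or 3 or day 7 replicate 2 or 3 ended the call (adjusted p from 0.0892 to 0.137), as did leaving out day 4 replicate 1 (adjusted p = 0.0508) and the 3 libraries that stood apart (-1.85, adjusted p = 0.626), and tag family as a covariate (-1.59, adjusted p = 0.0502).

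**Figure D4:**
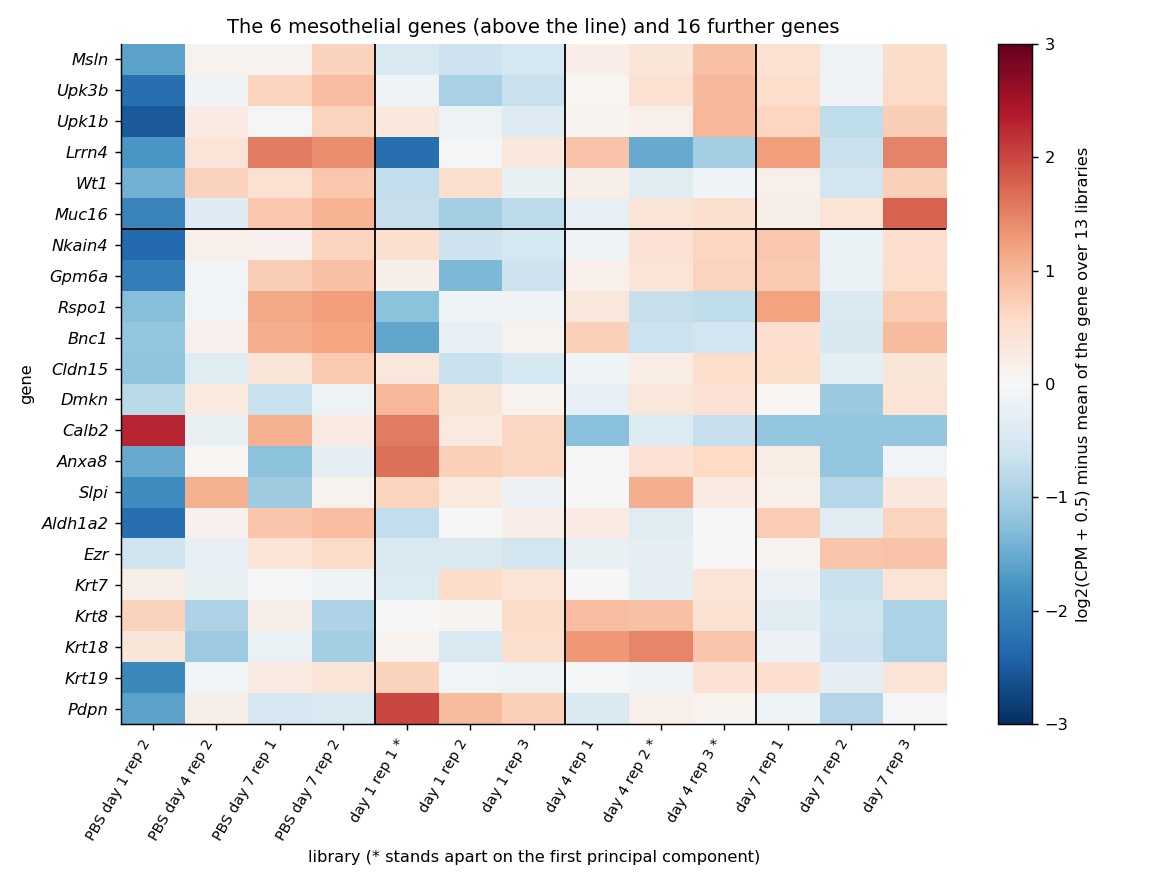
Log2(CPM + 0.5) minus the mean of each gene over 13 libraries, for the 6 mesothelial genes (above the line) and 16 further genes, in the libraries grouped by condition. The PBS day 1 library is low for the 6 genes but not for Calb2 (6.10 CPM) or Krt8 and Krt18. The starred libraries are low for Lrrn4, Rspo1 and Bnc1 but not for Nkain4, Gpm6a or Cldn15.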

How the data were processed

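Bulk RNA-seq counts of young adult CD45- thymic stroma were analysed in 13 libraries of 4 groups. As deposited, the table holds raw counts per gene, which the authors made with Trimmomatic 0.38, STAR 2.7.0e (GRCm38.p5, GENCODE M12) and featureCounts 1.6.3 at default settings, so multi-mapped reads of near-identical genes may be missing. Gene length, in bases, is the deposited column of the same table. The 4 PBS columns name no sample of the labels and were used as steady state without a replicate number. Every library of a group was kept as 1 sample, since the counts of no pair agreed within sampling noise.

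Counts were tested with edgeR 4.0.16 in R 4.3.3 (TMM, filterByExpr, quasi-likelihood F-test, all 13 libraries in 1 fit with condition as the factor). P-values were adjusted by Benjamini-Hochberg over 19984 genes and called at 0.05. The standard error is the log2 fold change over the square root of F. Correlations used log2(CPM + 0.5) and two-sided permutation tests (100000 resamples, or all 5184 within conditions), adjusted over 15 pairs. The scripts were tested on simulated data.

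Alternatives were DESeq2 1.42.0, RLE factors, other filters, only the conditions compared, tag family, thinned counts, a replicate block and each library left out, and, chosen after the data were seen, the 3 libraries that stood apart left out. Named genes were the 6 members, Nkain4 and the called genes of the wider list, the 10 genes most like the mean of the 6, and markers that stand beside a result. Motifs were searched on both strands. The members and lists were chosen with earlier results of these data known. Same-numbered libraries of different days did not deviate together (mean r of -0.252 over 9 pairs), so the numbers were not taken to pair them.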

Additional observations from a re-analysis of the deposited data

How the results depend on the processing

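The 6 genes in 6 comparisons gave 36 fold changes and 774 alternative values, of which 715 kept direction and side of the threshold, 3 passed it and 56 turned in sign, in 17 fold changes that were all uncalled; the cause was not tested. The count of the 6 genes called from day 1 to day 7 was 1 with DESeq2 and without the filter, and 0 to 1 with single libraries left out. The median correlation ran from 0.43 to 0.741 with single libraries left out.

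Values that turned were as follows. For Upk1b at day 1 against steady state they were 0.035 (DESeq2), 0.035 (RLE factors), 0.025 (at least 10 counts in every library), 0.18 (tag family) and 0.0020 (thinned). Those of Muc16 at day 4 against steady state were 0.052 (DESeq2), 0.054 (RLE factors), 0.066 (only the conditions compared) and 0.38 (tag family). Without the 3 libraries that stood apart, Upk3b was at -0.15 and Lrrn4 at 0.0034 (day 4 against steady state), Wt1 at -0.0044 (day 7 against day 1), and Msln at 0.13, Upk3b at 0.31 and Upk1b at 0.28 (day 7 against day 4). With tag family, Upk3b was at -0.0116 (day 7 against steady state), Wt1 at 0.095 (day 4 against day 1) and Upk1b at -0.054 (day 7 against day 1). With only the conditions compared, Wt1 was at 0.047 (day 4 against day 1). With the replicate block, fitted on the 9 irradiated libraries because the steady-state columns carry no number of the labels, Lrrn4 was at -0.23 (day 4 against day 1), and genes called moved from 285 to 56, from 1625 to 640 and from 779 to 0 in the day comparisons. Not every library deviated most like its own number (3 of 9 same-number pairs over 0.1). The block changed no call of the 6 genes, and ended those of Ezr (adjusted p = 0.0644), Pdpn from day 1 to day 7 (0.0788) and Krt18 (0.0908).

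With single libraries left out, the ranges of fold changes that turned were as follows. For day 1 against steady state, Upk1b ran from -0.32 to 0.32. For day 4 against steady state, Muc16 ran from -0.27 to 0.36. For day 7 against steady state, the ranges were -0.0042 to 0.61 (Msln), -0.18 to 0.51 (Upk3b), -0.23 to 0.56 (Lrrn4) and -0.52 to 0.12 (Wt1). For day 4 against day 1 they were -0.88 to 0.57 (Lrrn4) and -0.27 to 0.37 (Wt1), and for day 7 against day 1 Wt1 ran from -0.13 to 0.65. For day 7 against day 4 they were -0.42 to 0.046 (Msln), -0.46 to 0.10 (Upk3b), -0.43 to 0.24 (Upk1b), -0.16 to 0.48 (Wt1) and -0.047 to 1.01 (Muc16).

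Genes called over the whole table moved more. Against steady state they were 469 at day 1 (182 to 1399 over the alternatives), 58 at day 4 (10 to 645) and 1 at day 7 (0 to 1081). Between days they were 285 (7 to 960), 1625 (176 to 2940) and 779 (0 to 1919), and 1330 over the 4 conditions (144 to 3665). The lowest counts came mostly without the 3 libraries that stood apart, which leaves 10 libraries and 1 at day 4, and the highest with DESeq2. Outlying steady-state values were looked for in 22 genes, by the gap to the nearest value over the range, and none was found. For the 6 genes this check could not decide whether the PBS day 1 library was outlying. Their other steady-state values were spread so widely that no value of that library, however low, could have been flagged. With 3 or 4 libraries a group and intervals of the 6 genes that span several-fold changes, differences of 2-fold could be missed.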
